A study of Mus musculus with 6 samples.

Results

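The genes described here encode 7 subunits of the GABA-A receptor, and were chosen by symbol: Gabra2, Gabra3, Gabra4 and Gabra5 for alpha subunits, Gabrb1 and Gabrb2 for beta subunits, and Gabrd for the delta subunit. All 7 were found among the 55401 genes of the deposited count table, and 0 of the authors' 537 listed transcripts came from them. Polyadenylated RNA of the anterior cingulate cortex, a frontal midline area, was sequenced in 6 bulk libraries of adult mice, of which 3 carry the label wild type (WT) for the gene Ythdf1 and 3 the label knockout (KO). Ythdf1 encodes a cytoplasmic protein that binds N6-methyladenosine in mRNA. The labels give no treatment, strain, sex, exact age or design of the knockout allele, and whether each library came from its own animal is not stated, so the p-values below measure the spread between libraries, which may be technical.

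The GABA-A receptor is the chloride channel that gives most fast inhibition in the forebrain. It is a ring of subunits in which GABA binds between an alpha and a beta subunit, while a gamma or a delta subunit usually completes the ring. The alpha subunit sets much of the receptor's kinetics, its place on the neuron and its response to benzodiazepines. Many receptors with a gamma subunit, though not all, gather at synapses. Receptors with the delta subunit lie outside synapses and carry a slow, tonic current.

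The libraries held 61792250 to 69848835 counts, and the members 2623 to 11778 counts per library. Ythdf1 itself was at 49.0 to 55.8 CPM (counts over the TMM-scaled library total, times 1000000) under the WT label and 57.2 to 62.1 CPM under the KO label, so the gene total does not show the knockout and directions below are between labels. All 8 cortical excitatory and all 12 interneuron markers had counts, as had every marker found by symbol for the other listed cell types and regions. Of 11 deep-layer markers 10 were found, and Ctgf was not. Detection alone thus does not tell the labelled area from its neighbours. The libraries differed in the levels of markers of other cells. Leptomeningeal markers summed to 110.3 to 208.5 CPM under the WT label against 78.3 to 95.3 CPM under the KO label. Striatal markers stood at 621.6 CPM in WT replicate 2 against 372.1 to 416.1 CPM elsewhere. Mature oligodendrocyte markers were at 6561 CPM in KO replicate 1 against 3854 to 4938 CPM elsewhere. In bulk tissue, fewer cells of a type and less RNA per cell cannot be told apart.

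Positions are in GRCm38. Gabra2 (chromosome 5, 70957597 to 71095849, minus strand), Gabra4 (71569749 to 71658308, minus strand) and Gabrb1 (71658113 to 72149037, plus strand) share a cluster on chromosome 5. Gabra4 and Gabrb1 overlap at their 5′ ends, on opposite strands, with 46 bases of shared exon in GENCODE M21. In RefSeq the start sites of this pair lie 387 bases apart, at 71658308 for Gabra4 and 71657921 for Gabrb1, so that each gene is transcribed across the start of the other. Gabra5 lies on chromosome 7 (57407672 to 57510059, minus strand), Gabrb2 on chromosome 11 (42419757 to 42629028, plus strand), Gabrd on chromosome 4 (155384980 to 155398112, minus strand) and Gabra3 on the X chromosome (72432681 to 72656848, minus strand).

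RefSeq promoter windows (GRCm38.p6, 250 bases before to 50 after a start site) were found for 6 of the 7 members. Those of Gabra5 and Gabra2 are shown because these genes had the largest differences in either direction, and those of Gabra4 and Gabrb1 because their 5′ ends overlap. They lie at chr7:57510010-57510309 (minus strand, Gabra5), chr5:71095800-71096099 (minus strand, Gabra2), chr5:71658259-71658558 (minus strand, Gabra4) and chr5:71657671-71657970 (plus strand, Gabrb1, the first of its windows). Capitals mark matches on either strand to the GC box GGGCGG, the TATA box TATAAA, the CCAAT box CCAAT, the E-box CACGTG or the cAMP response element TGACGTCA.
Gabra5: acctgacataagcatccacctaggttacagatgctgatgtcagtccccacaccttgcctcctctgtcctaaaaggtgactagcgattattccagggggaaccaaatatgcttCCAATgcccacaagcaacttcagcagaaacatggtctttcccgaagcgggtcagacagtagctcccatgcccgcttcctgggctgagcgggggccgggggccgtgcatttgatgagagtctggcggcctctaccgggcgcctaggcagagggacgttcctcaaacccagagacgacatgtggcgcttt
Gabra2: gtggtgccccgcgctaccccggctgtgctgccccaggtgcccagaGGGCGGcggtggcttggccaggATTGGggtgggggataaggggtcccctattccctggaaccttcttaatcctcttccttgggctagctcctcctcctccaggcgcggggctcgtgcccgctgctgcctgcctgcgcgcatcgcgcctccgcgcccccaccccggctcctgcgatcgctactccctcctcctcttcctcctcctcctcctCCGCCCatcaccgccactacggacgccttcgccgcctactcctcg
Gabra4: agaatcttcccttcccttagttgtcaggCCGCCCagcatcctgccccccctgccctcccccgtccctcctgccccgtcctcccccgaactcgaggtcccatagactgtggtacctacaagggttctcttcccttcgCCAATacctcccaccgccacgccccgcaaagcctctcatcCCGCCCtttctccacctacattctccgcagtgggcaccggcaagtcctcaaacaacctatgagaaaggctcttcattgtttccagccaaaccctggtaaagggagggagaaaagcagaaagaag
Gabrb1: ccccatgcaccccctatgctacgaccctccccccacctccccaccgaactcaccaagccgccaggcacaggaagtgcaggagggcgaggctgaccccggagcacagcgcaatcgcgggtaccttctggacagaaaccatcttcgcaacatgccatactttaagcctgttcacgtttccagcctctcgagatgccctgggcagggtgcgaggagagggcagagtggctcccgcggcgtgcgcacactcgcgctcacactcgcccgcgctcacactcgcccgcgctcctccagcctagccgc
The Gabra2 window was 70.0% G and C and that of Gabrb1 66.0%, against a median of 52.7% over 32851 windows, and each of them held 25 CG dinucleotides (median 7). The Gabra5 window was 56.7% G and C with 13 CG dinucleotides, and the Gabra4 window 58.7% with 12. Gabra2 and Gabra4 had 2 GC box matches each, in windows of which 35.7% genome-wide hold at least 1. Gabra2, Gabra4 and Gabra5 had 1 CCAAT match each (37.4% of all windows hold it). No match to any of the 5 motifs was found in the window of Gabrb1 shown. No TATA box (13.6% of all windows), E-box (7.2%) or cAMP response element (1.8%) match was found in the windows shown. Both windows of Gabra3, which overlap each other, held 0 CG dinucleotides, 1 TATA box match and 2 CCAAT matches, and of the 3 windows of Gabrb2 the first held 1 TATA box and 1 GC box match.

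Levels of different genes were compared as CPM per kilobase of exon. Gabra3 was the most abundant member, at 41.2 CPM per kilobase over the 6 libraries (35.9 to 45.1). Gabrb2 followed at 22.0 (21.1 to 23.6), Gabra4 at 20.1 (18.7 to 21.9) and Gabra5 at 18.9 (17.4 to 20.4). Gabrd was at 15.7 (14.7 to 17.0), Gabrb1 at 11.7 (10.8 to 12.4) and Gabra2 at 6.44 (5.52 to 7.19) CPM per kilobase. The ranges over the 6 libraries overlapped for Gabrb2 and Gabra4 and for Gabra4 and Gabra5, while those of every other neighbouring pair did not. Overlap of ranges does not compare genes within a library, so it does not show that these neighbours were level. With the longest transcript in place of all exons the order was the same, although the levels of Gabrb2 and Gabra4 were then 35.1 and 29.8 CPM per kilobase. The ranges were not compared at that length, so the overlaps are given for all exons only.

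**Figure D1:**
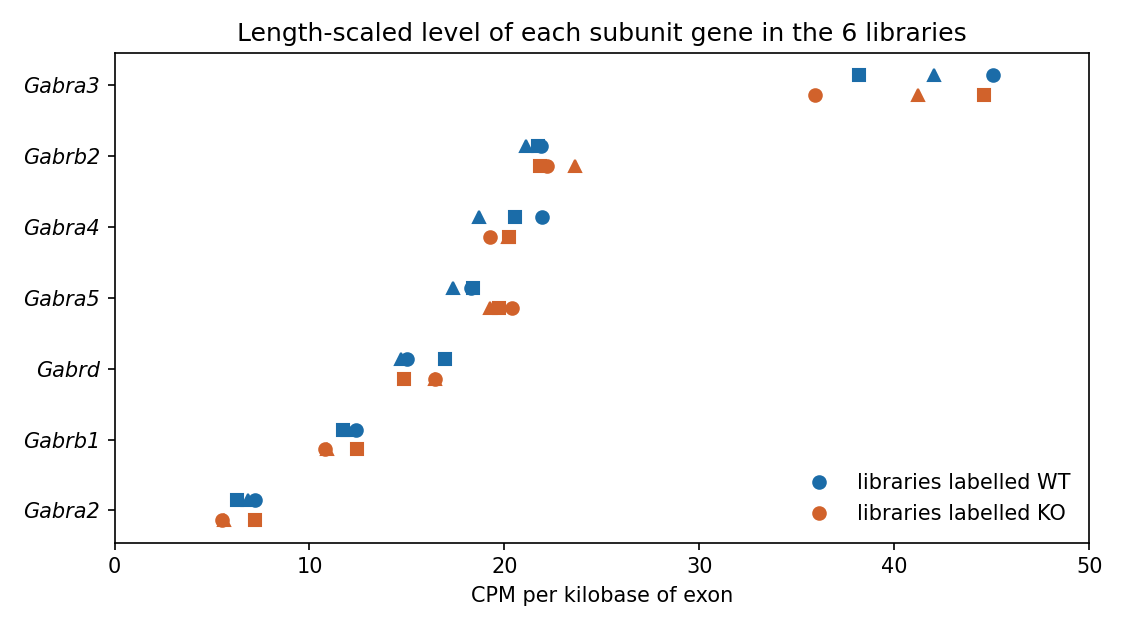
Level of each subunit gene as CPM per kilobase of exon on the horizontal axis, with genes ordered by their mean; each point is 1 library, shaped by replicate number. Gabra3 lies at 35.9 to 45.1 in all 6 libraries, above every other member, and Gabra2 lies lowest at 5.52 to 7.19.

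On this scale the 7 members made up 45.4% ± 1.39 of the summed level of all 19 annotated subunit genes in the libraries labelled WT and 45.7% ± 1.91 in those labelled KO (SD, n = 3 each). Among alpha subunit genes, Gabra3 held 25.6% ± 2.23 and 25.04% ± 2.81, Gabra4 12.4% ± 0.250 and 12.3% ± 0.428, and Gabra2 4.15% ± 0.340 and 3.77% ± 0.574. Gabra5 held 10.6%, 11.1% and 11.4% of the alpha level in WT replicates 1, 2 and 3 and 12.5%, 12.2% and 11.97% in KO replicates 1, 2 and 3. The Gabra5 share was thus higher in each library labelled KO than in any library labelled WT, whereas the shares of the other alpha members overlapped between the groups. These shares use the same counts as the comparison of levels below and are not a separate result. In CPM, 11% of all tested genes had groups that did not overlap. Shares with the longest transcript were not computed.

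The libraries labelled KO were then compared with those labelled WT. No member passed: edgeR's quasi-likelihood test, with Benjamini-Hochberg adjustment over 20587 genes, called 0 of the 7 members and 0 genes in all (0%). At an unadjusted p under 0.05 it had 1 member, Gabra5, against 5.26% of all tested genes (2.62% higher and 2.64% lower). DESeq2 called 0 members (0.165% of all genes) and limma voom 0 (0%). The median log2 fold change of the members was -0.04, with 3 higher and 4 lower, beside a median of -0.0006 over all tested genes. Gabra5 was also the 1 member whose groups did not overlap, which 11% of all tested genes did (5.84% with the KO label higher and 5.16% with it lower).

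**Figure D2:**
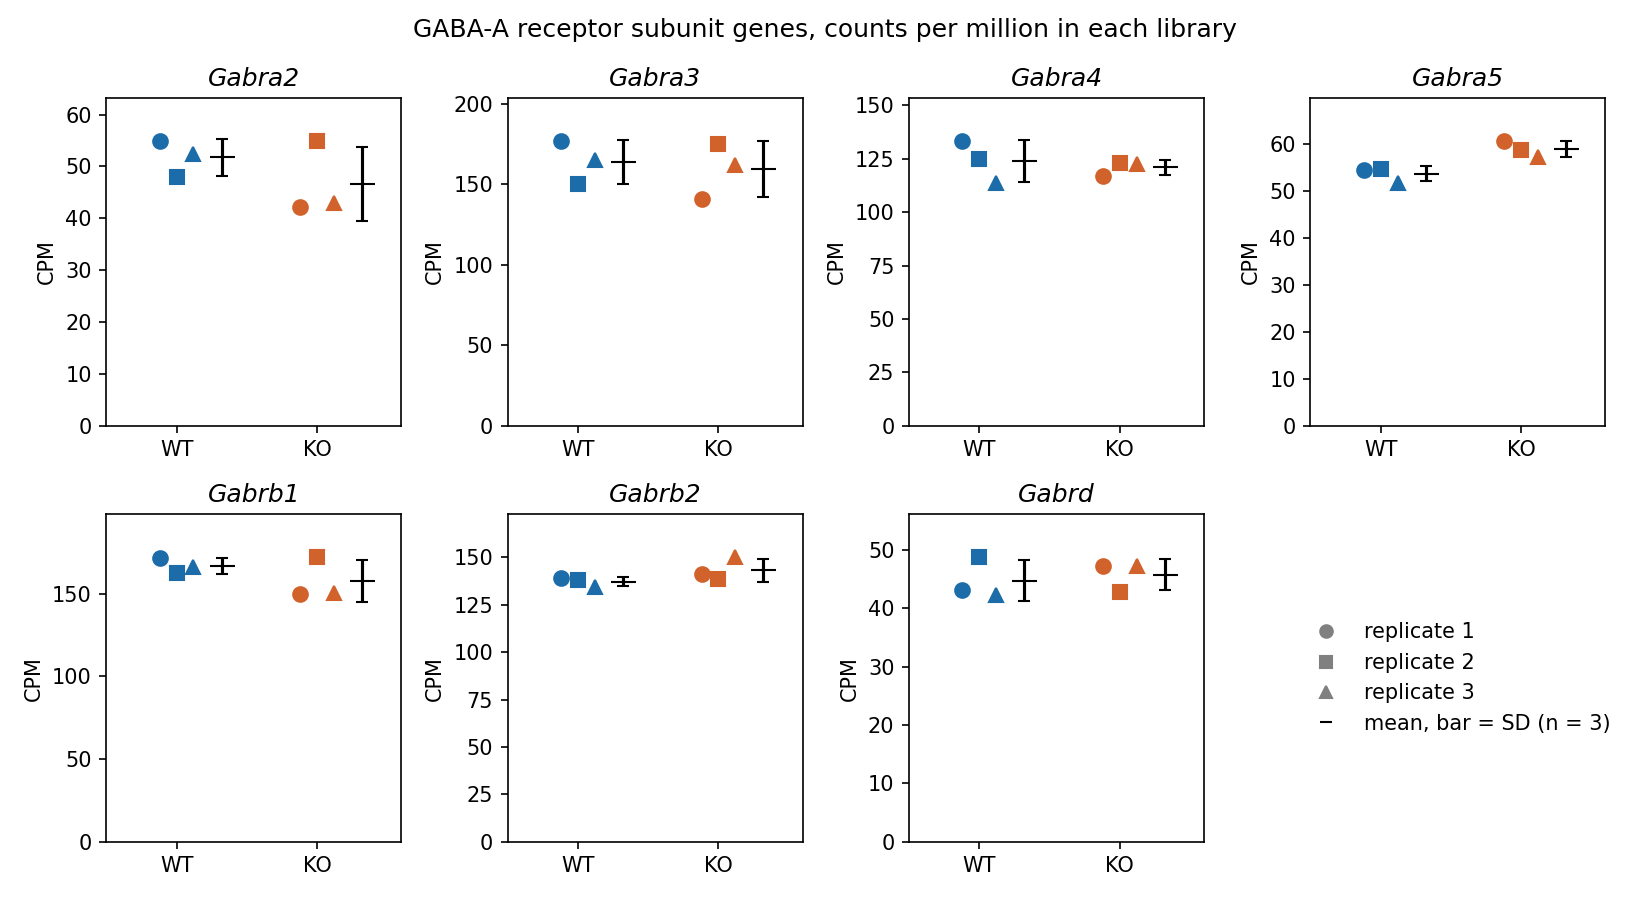
CPM of each subunit gene (vertical axes, from 0) in the 3 libraries labelled WT and the 3 labelled KO; points are libraries, shaped by replicate number, and the bar beside each group is the mean with its SD. Gabra5 is at 51.7 to 54.6 CPM under the WT label and 57.2 to 60.6 CPM under the KO label, and the groups of the other 6 genes overlap.

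Gabra5 encodes the alpha5 subunit, which is abundant in the hippocampus and in deep cortical layers and takes part in tonic inhibition. It was at 54.4, 54.6 and 51.7 CPM for WT replicates 1 to 3, against 60.6, 58.7 and 57.2 CPM for KO replicates 1 to 3. All 3 libraries labelled KO lay above all 3 labelled WT. Group means were 53.6 ± 1.64 and 58.9 ± 1.70 CPM (SD, n = 3 per group), and edgeR put the log2 fold change at 0.14 (standard error, SE, 0.055). The 95% interval ran from 1.01-fold to 1.20-fold, and edgeR's unadjusted p of 0.0354 became an adjusted p of 0.93. An exact two-sided permutation test of the 6 libraries gave p = 0.1, the smallest that 3 against 3 allow. Groups without overlap must give this value, so it adds nothing to the lack of overlap. The log2 fold change stayed between 0.11 and 0.15 with any 1 library left out, and its direction could not turn for the same reason. In these fits edgeR's unadjusted p was 0.0463 without KO replicate 3 and 0.056 to 0.118 without any other library. Deep-layer excitatory markers had 8 of 10 tested genes higher under the KO label (median log2 fold change 0.12), and 0 were called by edgeR or DESeq2 (2 with an unadjusted edgeR p below 0.05). Leaving out WT replicate 1 gave a median of 0.04, and leaving out KO replicate 1 one of 0.09. Summed over the list they reached 393.4 to 465.6 CPM under the WT label and 414.0 to 464.7 CPM under the KO label, with no tested marker at 0. Their part in the Gabra5 difference was not tested. The exons of Gabra5 overlap 148 bases of the antisense gene Gm9962, whose reads can be told apart only by a count that uses strand.

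Gabra2 encodes the alpha2 subunit, found at synapses of the axon initial segment and tied in mice to the anxiolytic action of benzodiazepines. It was at 54.95, 47.9 and 52.4 CPM for WT replicates 1 to 3, against 42.1, 54.9 and 43.0 CPM for KO replicates 1 to 3. KO replicates 1 and 3 were below every library labelled WT, but KO replicate 2 was level with the highest of them, so the groups overlapped. Group means were 51.8 ± 3.55 and 46.7 ± 7.12 CPM (SD, n = 3 per group), with a log2 fold change of -0.15 (SE 0.104, edgeR adjusted p = 0.966). The 95% interval ran from 0.767-fold to 1.06-fold. Without KO replicate 2 the log2 fold change was -0.28 at an unadjusted edgeR p of 0.00656 (adjusted p = 0.943). Leaving out KO replicate 1 gave -0.08 (edgeR adjusted p = 1) and leaving out KO replicate 3 gave -0.10 (edgeR adjusted p = 0.952).

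Gabra3 encodes the alpha3 subunit, present in cortex and in many monoamine neurons. It was at 176.9, 149.8 and 165.0 CPM for WT replicates 1 to 3, against 141.0, 175.1 and 161.8 CPM for KO replicates 1 to 3. The groups spanned nearly the same range. The log2 fold change was -0.04 (SE 0.087, edgeR adjusted p = 0.985), and its direction turned without WT replicate 1 (0.01) and without KO replicate 1 (0.04).

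Gabra4 encodes the alpha4 subunit, which pairs with delta in forebrain receptors outside synapses and lacks sensitivity to classical benzodiazepines. It was at 133.4, 125.0 and 113.7 CPM for WT replicates 1 to 3, against 117.1, 123.2 and 122.8 CPM for KO replicates 1 to 3. All 3 libraries labelled KO fell inside the range of those labelled WT. The log2 fold change was -0.04 (SE 0.064, edgeR adjusted p = 0.979), with a 95% interval of 0.883-fold to 1.08-fold, and it was 0.02 without WT replicate 1.

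Gabrd encodes the delta subunit of receptors outside synapses, a main target of neurosteroids. It was at 43.1, 48.8 and 42.2 CPM for WT replicates 1 to 3, against 47.2, 42.8 and 47.2 CPM for KO replicates 1 to 3. Both groups held high and low libraries. The log2 fold change was 0.03 (SE 0.075, edgeR adjusted p = 0.985) and was -0.01 without WT replicate 3. WT replicate 2, the highest in Gabrd, also had the highest summed striatal marker level of the 6 libraries (621.6 CPM). KO replicates 1 and 3, next highest in Gabrd, had striatal sums of 372.1 and 382.5 CPM. The part of striatal cells in Gabrd was not tested.

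Gabrb1 and Gabrb2 encode beta subunits, which carry part of the GABA site and bring receptors to the cell surface. Beta2 gives receptors a strong response to the anaesthetic etomidate, and beta1 a weak one. Gabrb1 was at 171.6, 162.4 and 165.9 CPM for WT replicates 1 to 3, against 149.7, 172.1 and 150.5 CPM for KO replicates 1 to 3. As in Gabra2, KO replicates 1 and 3 were below all libraries labelled WT and KO replicate 2 was not. The log2 fold change of Gabrb1 was -0.08 (SE 0.063, edgeR adjusted p = 0.969), and -0.15 without KO replicate 2 (unadjusted p = 0.0236, adjusted p = 0.943). It was -0.05 without KO replicate 1 (edgeR unadjusted p = 0.485) and -0.05 without KO replicate 3 (edgeR unadjusted p = 0.47). Gabrb2 was at 139.1, 138.1 and 134.3 CPM for WT replicates 1 to 3, against 141.0, 138.7 and 150.1 CPM for KO replicates 1 to 3. KO replicate 3 stood above the rest, and the lowest library labelled KO lay within the WT range. The log2 fold change of Gabrb2 was 0.06 (SE 0.050, edgeR adjusted p = 0.973), with a 95% interval of 0.966-fold to 1.13-fold, and it was 0.02 without KO replicate 3 (unadjusted p = 0.656).

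**Figure D3:**
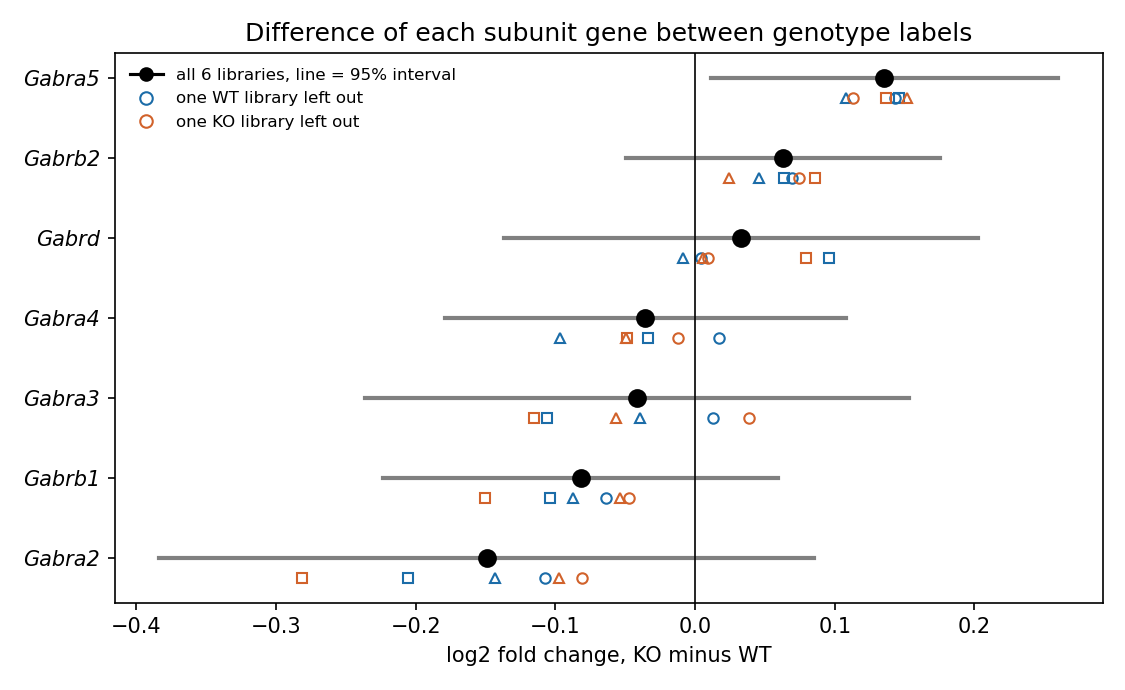
Log2 fold change (KO minus WT, horizontal axis) of each subunit gene; black points and lines are the estimate and 95% interval over all 6 libraries, and open symbols below are the estimates with 1 library left out, shaped by its replicate number. Gabra5 stays between 0.11 and 0.15, while the open symbols of Gabra3, Gabra4 and Gabrd fall on both sides of 0.

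The members did not move as a block across libraries. Profiles were compared as log2 CPM centred on each gene's own mean, by the root-mean-square difference over the 6 libraries. Gabra5 and Gabrb2 were closest (0.07), followed by Gabrb2 and Gabrd (0.07), Gabra3 and Gabrb1 (0.08) and Gabra2 and Gabrb1 (0.08). Gabra2 and Gabrd were farthest apart (0.23). The overlapping neighbours Gabra4 and Gabrb1 differed by 0.08. Gabra2, Gabra3 and Gabrb1 all had their lowest level in KO replicate 1, at -0.22, -0.19 and -0.11 relative to their means, and were above their means in WT replicate 1 and KO replicate 2. In KO replicate 1 the upper-layer markers stood at -0.29 and the oligodendrocyte markers at 0.495 on the same scale, the lowest and highest of the 6 libraries. KO replicate 3 was nearly as low in Gabra2 (-0.19) and Gabrb1 (-0.10), but not in Gabra3 (0.007). There the upper-layer markers were at 0.03 and the oligodendrocyte markers at -0.08. The upper-layer markers (2 of 8 higher, median log2 fold change -0.14, 0 called by either tool, 1 at an unadjusted edgeR p under 0.05) summed to 786.7 to 868.3 CPM under the WT label and 675.7 to 784.5 CPM under the KO label. Leaving out WT replicate 1 gave a median of -0.08, and leaving out KO replicate 2 one of -0.21. The oligodendrocyte markers (10 of 10 higher, median 0.35, 0 called by edgeR and 1 by DESeq2, 6 at an unadjusted edgeR p under 0.05) summed to 3854 to 4602 CPM under the WT label and 4309 to 6561 CPM under the KO label. The oligodendrocyte median was 0.14 without KO replicate 1. No marker of either list was at 0, and their part in the 3 profiles was not tested.

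**Figure D4:**
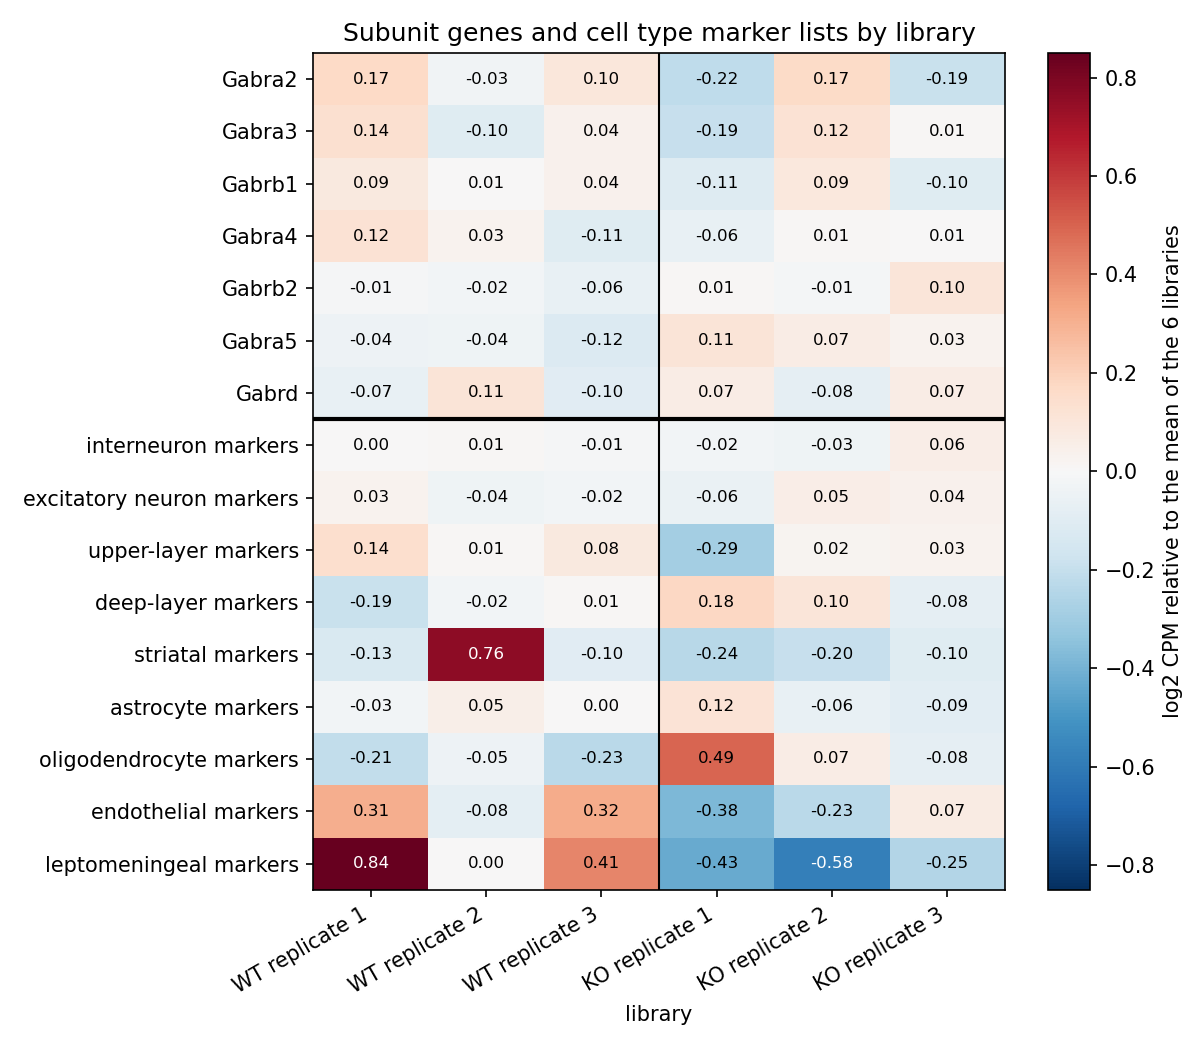
Deviation of log2 CPM from the 6-library mean (colour and printed value) for each subunit gene, above the line, and for the mean of each marker list, below it; columns are libraries. Gabra2, Gabra3 and Gabrb1 are lowest in KO replicate 1, where oligodendrocyte markers are at 0.495 and upper-layer markers at -0.29. In KO replicate 3 Gabra2 is at -0.19 and Gabrb1 at -0.10, with oligodendrocyte markers at -0.08 and upper-layer markers at 0.03.

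Of 11951 other genes that averaged 5 CPM or more, those with profiles nearest to Gabra5 included Eny2, Mgat4a, Chmp2b and Vps4a, each with a root-mean-square difference of 0.02. Nearest to Gabra2, the member with the widest range, were Fam149a (0.03), Rlf (0.04), Fcrls (0.04), Tnfrsf19 (0.04) and Rsph3b (0.04). The distances are over 6 libraries and only describe likeness in these data.

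The letters GGACT, the commonest form of the m6A consensus, were counted on the sense strand of the longest coding transcript of each gene. A match in the sequence is not a measured m6A site. Gabra3 had 8 matches, 2.19 per kilobase, a higher density than 91.6% of 15597 tested coding genes. Gabrb2 had 6 (1.504 per kilobase), Gabra5 4 (1.498), Gabra2 8 (1.37), Gabrb1 10 (0.728) and Gabrd 1 (0.521), against a median of 1.05 per kilobase. No GGACT was found in the 4108 bases of the Gabra4 transcript, whereas 92.6% of all genes had at least 1.

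Of 12 further subunit genes, 9 had enough counts to be tested, with 4 higher and 5 lower, a median log2 fold change of -0.0016 and 0 called by edgeR or DESeq2 (1 with an unadjusted edgeR p below 0.05). That gene was Gabrr2, a rho subunit best known from the retina, at 0.751, 1.03 and 0.676 CPM for WT replicates 1 to 3, against 0.398, 0.228 and 0.365 CPM for KO replicates 1 to 3. The groups did not overlap, at under 70 counts in every library, and the log2 fold change was -1.30 (SE 0.407, edgeR adjusted p = 0.881). The theta subunit gene Gabrq was at 0.895 ± 0.333 and 0.691 ± 0.183 CPM (SD, n = 3 each; edgeR adjusted p = 0.974).

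Proteins that anchor, assemble or move the receptor were split, with 13 of 24 genes higher and 11 lower. Their median log2 fold change was 0.01, and 0 were called by edgeR or DESeq2. At an unadjusted edgeR p below 0.05 there were 2, Gabarapl1 and Kif5a. Gabarapl1 and Gabarap encode small proteins of autophagy and membrane traffic, the second of which binds gamma subunits. Gabarapl1 was at 413.9, 438.0 and 415.2 CPM for WT replicates 1 to 3, against 471.4, 464.2 and 473.0 CPM for KO replicates 1 to 3, with no overlap (log2 fold change 0.15, SE 0.045, edgeR adjusted p = 0.881). Gabarap had a log2 fold change of 0.12 (SE 0.055, edgeR adjusted p = 0.93), also without overlap. Kif5a, a kinesin motor that carries receptor vesicles, had a log2 fold change of 0.21 (SE 0.091, edgeR adjusted p = 0.93), with groups that overlapped. That of Plcl1, which binds the receptor and phosphatases, was 0.17 (SE 0.098, edgeR adjusted p = 0.955), also with overlap.

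GABA synthesis, uptake and breakdown had 2 of 9 genes higher and 7 lower, a median log2 fold change of -0.04 and 0 called by edgeR or DESeq2 (1 with an unadjusted edgeR p below 0.05). That gene was Slc6a13, a GABA transporter of the leptomeninges, at 11.4, 3.80 and 5.65 CPM for WT replicates 1 to 3, against 2.68, 2.32 and 3.73 CPM for KO replicates 1 to 3 with no overlap (log2 fold change -1.26, SE 0.369, edgeR adjusted p = 0.881). All 9 of 9 leptomeningeal markers were lower too (median -0.80, 0 called by edgeR and 6 by DESeq2, 9 at an unadjusted edgeR p under 0.05), none was at 0, and their part in Slc6a13 was not tested. Slc32a1, which loads GABA into vesicles, had a log2 fold change of 0.13 (SE 0.082, edgeR adjusted p = 0.966) and Slc6a12, a low-level betaine and GABA transporter, one of -0.84 (SE 0.599, edgeR adjusted p = 0.969). Interneuron markers, which stand for the cells that release GABA, had 6 of 12 genes higher and a median of -0.02. Of them 0 were called by edgeR or DESeq2 (0 with an unadjusted edgeR p below 0.05). The interneuron list shares Slc32a1 and some other genes with the list of GABA metabolism, so these lists are not independent.

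GABA-B receptor and chloride transporter genes had 3 of 8 higher and 5 lower, a median log2 fold change of -0.03 and 0 called by edgeR or DESeq2 (0 with an unadjusted edgeR p below 0.05). Slc12a2, the transporter that brings chloride into cells, was at 79.2 ± 2.199 CPM under the WT label and 88.8 ± 9.94 CPM under the KO label (SD, n = 3 per group), of which KO replicate 1 had 99.97 CPM (log2 fold change 0.16, SE 0.077, edgeR adjusted p = 0.93). Slc12a5, the transporter that carries chloride out of neurons, had a log2 fold change of -0.04 (SE 0.047, edgeR adjusted p = 0.974). The GABA-B subunit gene Gabbr2 had one of -0.05 (SE 0.053, edgeR adjusted p = 0.974) and its auxiliary subunit gene Kctd16 one of -0.10 (SE 0.078, edgeR adjusted p = 0.973).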

How the data were processed

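A deposited table holds raw whole-number counts for 55401 genes, which entered the tests unchanged. A second deposited table lists 537 transcripts with an FPKM value per library, a log2 ratio of group means and q-values, per the file headers. The submitters' processing notes name cutadapt 1.9, HISAT2 2.2.1 and StringTie 2.1.6, and DESeq2 and edgeR without a version. No source used here gives the build, the counter or its strand setting. Per the labels' protocols the libraries mark strand with dUTP. Of the listed transcripts, 530 were found in GENCODE M21 (GRCm38), all 530 at the same position, and 55141 gene identifiers had a symbol there.

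Genes were kept by filterByExpr, which all 7 members passed, scaled by TMM and tested with edgeR 4.0.16 (R 4.3.3) by the quasi-likelihood F-test, KO against WT, without covariates, at a Benjamini-Hochberg adjusted p under 0.05. The SE is the log2 fold change divided by the square root of F. Alternatives used DESeq2 1.42.0, limma 3.58.1 voom, other scaling and filters, a replicate block and each library left out. The pipeline was tested on simulated data. No member matched another gene at 95% identity over 150 bases (blastn 2.17.0) except Gabra5 with its antisense gene Gm9962. Likeness used log2 CPM with a prior count of 0.5.

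The members and lists were chosen with earlier results of these data known. Named outside the members are up to 4 genes with the smallest p in each of 4 pathway lists and the 5 nearest profiles of 2 members. Some genes that these rules chose are left out here.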

Additional observations from a re-analysis of the deposited data

How the results depend on the processing

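Under all 15 alternatives 0 members were called. Over all genes edgeR called 0 and DESeq2 34; with 1 library left out the count ran from 0 to 2 (1 without WT replicate 2, and 2 without WT replicate 3, KO replicate 1 or KO replicate 3), and the cause was not tested. DESeq2 called 6 leptomeningeal, 1 striatal, 1 oligodendrocyte and 1 endothelial marker. Gabra2, Gabra5, Gabrb1 and Gabrb2 kept their direction under all 15 alternatives. With 1 library left out, the log2 fold change of Gabra3 ran from -0.12 to 0.0385 (0.0131 without WT replicate 1, 0.0385 without KO replicate 1), that of Gabra4 from -0.10 to 0.0169 (without WT replicate 1) and that of Gabrd from -0.0086 (without WT replicate 3) to 0.10, and each kept its direction under all other alternatives. The members' median ran from -0.05 to 0.01 with 1 library left out, and was 0.01 without WT replicate 1 and 0.01 without KO replicate 1. Members' adjusted p lay between 0.75 and 1 over all alternatives. In edgeR, Gabra5 missed an unadjusted p of 0.05 without any of 5 libraries (0.056 to 0.118) and passed without KO replicate 3 (0.0463). Same-numbered libraries did not deviate together over all tested genes (correlations -0.031, 0.033 and 0.018). Whether the numbers pair libraries stays unknown, since a pairing that moves few genes could give such values. With the replicate block 0 genes and 0 members were called, the members' median was -0.03 and Gabra5 had an unadjusted edgeR p of 0.0581. With 1 library left out, list medians ran from -0.03 to 0.0016 for the other subunits, -0.0073 to 0.03 for anchoring and traffic, -0.10 to -0.004 for GABA metabolism, -0.06 to 0.0071 for GABA-B and chloride transport and -0.06 to 0.0097 for interneuron markers, with both signs in each list but GABA metabolism. The SD between replicates was 1.85% to 15.25% of a member's mean. The width of the intervals does not follow from this SD alone. It rests on 3 libraries a group and on edgeR's estimate of spread, which is partly shared over all genes.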

Other observations

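Subunits of other tissues were at or near 0. Gabrp, the pi subunit gene, was at 0 counts in all 6 libraries, which allows up to 0.0426 to 0.0489 CPM per library (3 counts, counting error only). Gabra6, a gene of cerebellar granule cells, was at 11 counts in WT replicate 3 and 0 in the other libraries. Gabrr1, a retinal rho subunit gene, was at 16 counts in WT replicate 2, 3 counts in KO replicate 2 and 0 in the other libraries.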
